A study of Mus musculus with 12 samples.

Results

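The 10 enzyme genes of fatty acid synthesis and desaturation described here were Acly, Acss2, Acaca, Fasn, Elovl6, Elovl5, Scd1, Scd2, Fads1 and Fads2. They were chosen by symbol, 10 of the 24421 gene symbols counted, and all 10 passed the filter on low counts that left 11638 genes to be tested. RNA was sequenced from B16F10 cells, a mouse melanoma line that was the only line used, with 3 independent biological repeats in each of 4 groups. The control group received the vehicle DMSO. DAC (5-aza-2'-deoxycytidine, a DNA methyltransferase inhibitor) was given at 25 nM for 72 h, SFN (sulforaphane, an isothiocyanate from cruciferous vegetables) for 48 h after 24 h without drug, and the combination treatment was 25 nM DAC for 72 h with 5 µM SFN for the last 48 h. The sample labels give the SFN single treatment as 5 nM, whereas the study's methods give 5 µM for both SFN groups, so the dose of the SFN group is uncertain here. The comparisons ask how each single treatment and the combination treatment changed transcription in the melanoma cells.

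Cells build fatty acids from cytosolic acetyl-CoA, which is carboxylated to malonyl-CoA and then condensed into palmitate. Palmitate is lengthened by elongases and made monounsaturated by the stearoyl-CoA desaturases, while a separate pair of desaturases acts with an elongase on dietary polyunsaturated fatty acids. The genes of both branches are known targets of the sterol regulatory element-binding proteins (SREBPs), transcription factors that also drive cholesterol synthesis, and tumour cells, melanoma included, often make fatty acids themselves.

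The libraries held between 15880957 and 27291436 counts, and the single members between 271 counts (Acss2) and 76064 counts (Scd2). Levels are given as counts per 1000000 counts of a library after TMM scaling (CPM), and changes as log2 fold changes with their standard error (SE) from 1 edgeR quasi-likelihood model of all 12 libraries with the replicate number as a block. A gene passed the test at a Benjamini-Hochberg adjusted p under 0.05 over the 11638 genes. All 10 melanocyte lineage markers were present, with a summed level between 30030 and 39400 CPM over the 12 libraries, and keratinocyte and adipocyte markers reached at most 2 counts each. Endothelial markers reached at most 11 counts and leukocyte markers at most 3, except Lyz2 with 25 to 129 counts. The summed level of the 6 leukocyte markers ranged from 1.16 to 2.67 CPM in control, 1.45 to 3.06 CPM in DAC, 1.46 to 4.89 CPM in SFN and 2.37 to 5.12 CPM in the combination group. The summed level of 5 fibroblast markers, mostly Col1a1, ranged from 19.95 to 320.3 CPM in control, 25.1 to 366 CPM in DAC, 19.6 to 250.2 CPM in SFN and 28.5 to 251 CPM in the combination group, and the part of either list in the results was not tested. In bulk RNA, fewer cells with a transcript and less transcript per cell cannot be told apart.

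The promoters of 3 members are shown first, because 1 of the agents, DAC, acts on DNA methylation. Methylation was not measured, and a link between these sequences and the changes of the members was not tested. RefSeq start sites (GRCm38.p6) gave a window from 250 bases before to 50 bases after the start for 7 of the 10 members, and Fads1, Scd1 and Scd2 had no entry. The 3 shown are those with the smallest adjusted p in the combination comparison among the 7. Fads2 lies at chr19:10101454-10101753 on the minus strand, Acly at chr11:100527951-100528250 on the minus strand and Elovl5 at chr9:77917115-77917414 on the plus strand. Capitals mark a CCAAT box (CCAAT) or a GC box (GGGCGG) read on either strand.
Fads2: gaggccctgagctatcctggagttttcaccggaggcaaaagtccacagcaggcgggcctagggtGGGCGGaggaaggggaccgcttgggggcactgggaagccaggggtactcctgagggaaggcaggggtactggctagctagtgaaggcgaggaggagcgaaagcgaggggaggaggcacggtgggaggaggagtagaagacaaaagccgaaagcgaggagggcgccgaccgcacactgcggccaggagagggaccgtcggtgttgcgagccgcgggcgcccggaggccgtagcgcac
Acly: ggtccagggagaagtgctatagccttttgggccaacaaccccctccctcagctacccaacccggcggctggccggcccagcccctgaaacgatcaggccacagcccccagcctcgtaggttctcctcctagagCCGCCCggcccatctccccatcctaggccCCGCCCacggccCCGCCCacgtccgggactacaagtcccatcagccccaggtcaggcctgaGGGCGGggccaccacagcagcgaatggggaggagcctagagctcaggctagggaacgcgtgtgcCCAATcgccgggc
Elovl5: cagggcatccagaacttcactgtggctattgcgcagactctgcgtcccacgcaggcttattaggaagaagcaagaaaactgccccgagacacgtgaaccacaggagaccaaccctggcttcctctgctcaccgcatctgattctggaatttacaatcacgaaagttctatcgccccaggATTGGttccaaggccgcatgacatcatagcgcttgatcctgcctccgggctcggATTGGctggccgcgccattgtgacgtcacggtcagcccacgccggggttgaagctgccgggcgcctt
The Fads2 window held 1 GC box, the Acly window 4 GC boxes and 1 CCAAT box, and the Elovl5 window 2 CCAAT boxes and 1 E-box (CACGTG, left in lower case). Over the 7 members a GC box was found in 3 windows and a CCAAT box in 4, against 46.2% and 38.2% of 21263 promoter windows of protein-coding genes. In the Fasn window a CCAAT match on each strand overlapped the other. The E-box was found in 1 of 7 windows against 7.84% of all, an antioxidant response element (TGACNNNGC) in 1 of 7 (Acss2) against 13%, and a sterol response element (TCACNCCAC) in 0 of 7 against 1.19%. CpG dinucleotides numbered 23 in Fads2, 18 in Acly and 20 in Elovl5, compared with a median of 13 over all windows. The Fasn window held the most of the 7, with 39, and the Acaca window held 1. The Acaca window (chr11:84195188-84195487, plus strand) belongs to an internal start, downstream of the start of the gene's annotation, and it is counted among the 7 in the shares above. These matches describe the letters of a window and say nothing of binding.

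In the control group, which received DMSO, the levels of the members spread widely. On the scale of CPM per kilobase of annotated exons, Scd2 led in control cells at 571 and stood above 99.6% of all genes tested, followed by Acly at 142, Fasn at 93.2, Scd1 at 74.4, Fads2 at 61.9, Fads1 at 40.5, Elovl5 at 34.6, Elovl6 at 19.1, Acaca at 10.3 and Acss2 at 2.17. The replicate values of Fasn and Scd1, of Scd1 and Fads2, and of Fads1 and Elovl5 overlapped. The order within these pairs was therefore not set beyond the spread of the replicates. Every other pair of neighbours was apart on this scale. The order of the means was the same in control when the length of the principal transcript was used. With that length Acaca ranked above Elovl6 in the DAC, SFN and combination groups, so the order of these genes depends on the length used. Acaca may be too low on this scale, because 52.6% of its 75-base exon windows occur in no other gene, most of the rest being shared with Gm5182, and reads with more than 1 place in the genome were discarded. The same share was 94.3% for Acss2, 96.8% for Scd1, 97.7% for Elovl6, 98.2% for Scd2 and 100% for the other 5 members. Scd3 and Scd4, the paralogs of Scd1, reached at most 3 and 21 counts.

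**Figure D1:**
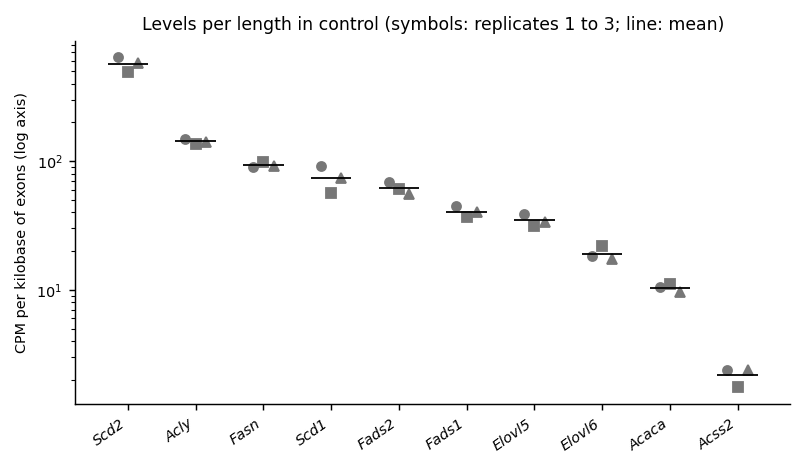
Levels of the 10 members in the control group in CPM per kilobase of exons (log axis); symbols are the 3 replicates and lines their means. Scd2 is highest at 571 and Acss2 lowest at 2.17, and the symbols of Scd1 overlap with those of Fasn and of Fads2.

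Together the 10 genes made up 0.608% ± 0.056 (SD, n = 3) of all counts in control, 0.556% ± 0.068 in DAC, 0.481% ± 0.078 in SFN and 0.461% ± 0.059 in the combination group. SFN lowered 6 of the 10 members at the test's threshold, and the combination treatment lowered 8, with none higher in either. Of all genes tested, 5.65% were lower with SFN and 14.7% lower with the combination treatment (13.9% and 31.6% changed in either direction). The median log2 fold change of the members was −0.38 with SFN and −0.37 with the combination treatment, while the median over all genes was 0.00399 and 0.00776. No member changed by more than 2-fold in these comparisons or against DAC, where 1.28% of all genes did so with SFN, 2.66% with the combination treatment and 0.928% with it against DAC. The members are described in the order of the pathway, each first with its level in the single libraries, and gene positions are those of GENCODE M21 on mm10.

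**Figure D2:**
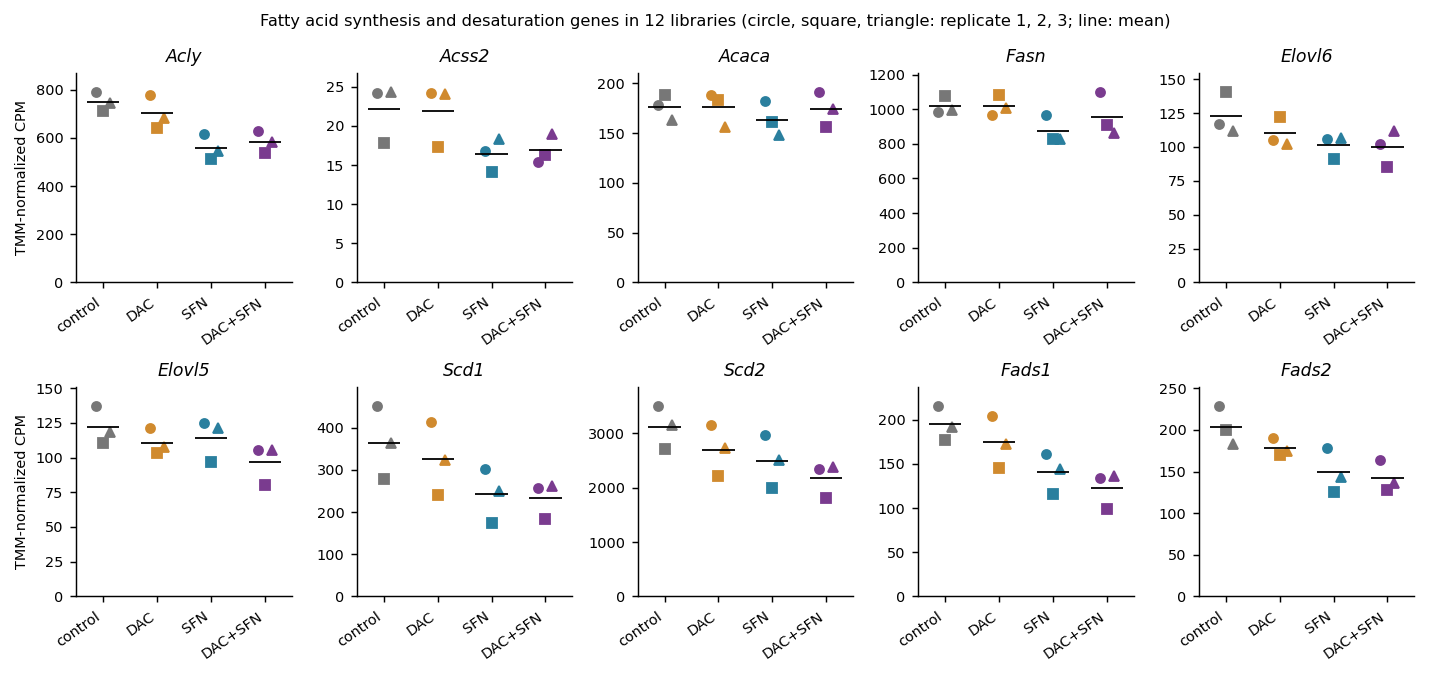
TMM-normalized CPM (linear axis from 0) of each member in the 12 libraries; circles, squares and triangles are replicates 1, 2 and 3 and lines are group means. For Scd1, Scd2, Fads1 and Acly the SFN and DAC+SFN means lie below both other means, and replicate 2 is the lowest symbol of each group.

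Acly (ATP citrate lyase, which cleaves citrate to cytosolic acetyl-CoA; chr11:100476353-100528000, minus strand) had 790, 713 and 746 CPM in control replicates 1, 2 and 3 and 617, 511 and 547 CPM in SFN. With DAC it had 780, 641 and 685 CPM, and with the combination treatment 627, 536 and 583 CPM. Both groups with SFN lay below every control library and below every DAC library. The log2 fold change was −0.43 with SFN (SE 0.050, adjusted p = 6.91e-05) and −0.37 in the combination group (SE 0.050, adjusted p = 9.81e-05). Its promoter is the GC-rich window shown above.

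Acss2 (acyl-CoA synthetase short-chain family member, which makes acetyl-CoA from acetate; chr2:155517948-155585724, plus strand) was the lowest member, at 24.2, 17.8 and 24.3 CPM in control and 16.8, 14.1 and 18.3 CPM in SFN. The combination group had 15.4, 16.3 and 18.9 CPM, and DAC had 24.3, 17.3 and 24.0 CPM. Each SFN library lay below the control library of its number, but the groups overlapped because of control replicate 2. Acss2 fell by 0.43 on the log2 scale with SFN (SE 0.10, adjusted p = 0.0111) and by 0.38 in the combination group (SE 0.10, adjusted p = 0.0110). Both calls were lost without control replicate 1 (adjusted p = 0.0791 and 0.0706) and without replicate 1 of the treated group (0.0522 and 0.0834). Exons of Acss2 share 395 bases with Gss and 197 with Ggt7 on the opposite strand, and the strand setting of the counting is not stated.

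Acaca (acetyl-CoA carboxylase alpha, which makes malonyl-CoA in the committed step; chr11:84129672-84401651, plus strand) had 179, 188 and 163 CPM in control, 182, 161 and 148 CPM in SFN. DAC had 188, 183 and 156 CPM and the combination group 191, 157 and 175 CPM. The 4 groups overlapped. Neither change passed the test, at −0.12 with SFN (95% interval −0.27 to 0.037) and −0.022 with the combination treatment (−0.17 to 0.13).

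Fasn (fatty acid synthase, which makes palmitate; chr11:120805846-120824547, minus strand) had 986, 1078 and 996 CPM in control and 964, 828 and 825 CPM in SFN. DAC had 966, 1084 and 1009 CPM and the combination group 1098, 907 and 860 CPM, with its replicate 1 the highest of all 12 libraries. The SFN libraries lay below those of the control group, yet replicate 1 differed little, and the change of −0.23 (SE 0.081) missed the threshold (adjusted p = 0.0733). It passed under a DESeq2 Wald test (adjusted p = 0.0323) and when only the control and SFN libraries were fitted (0.0318). With the combination treatment the change was −0.10 (95% interval −0.27 to 0.072).

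Of the enzymes up to palmitate, Acly and Acss2, which supply acetyl-CoA, fell in both comparisons, and Acaca and Fasn did not pass in either. The difference between these pairs of genes was not tested.

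Elovl6 (the elongase that acts on palmitate and other long-chain fatty acids; chr3:129532355-129638495, plus strand) had 117, 140 and 112 CPM in control, 106, 91.1 and 107 CPM in SFN. DAC had 105, 122 and 102 CPM and the combination group 102, 85.0 and 112 CPM. The control group lay just above both groups with SFN, and replicate 3 barely differed between control and the combination group. The change was −0.28 with SFN (SE 0.11, adjusted p = 0.102) and −0.31 in the combination group (SE 0.11, adjusted p = 0.0463). The SFN change passed without control replicate 3 (adjusted p = 0.0485). The combination call rested on replicate 2: without control replicate 2 the change was −0.17 (adjusted p = 0.278) and without DAC+SFN replicate 2 it was −0.17 (adjusted p = 0.276). It was also lost without control replicate 1 (0.0752), without DAC+SFN replicate 1 (0.0843) and with a robust fit (0.102).

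Elovl5 (the elongase of polyunsaturated fatty acids; chr9:77917364-77984519, plus strand) had 137, 111 and 118 CPM in control and 125, 96.5 and 122 CPM in SFN. DAC had 121, 103 and 108 CPM and the combination group 106, 80.2 and 106 CPM. The combination group lay below every control library. SFN alone gave −0.097 (SE 0.065, adjusted p = 0.351), whereas the combination treatment gave −0.33 (SE 0.066, adjusted p = 0.00168), a call that was lost without the libraries of replicate 1 (0.0556). The combination group differed from SFN by −0.24 without passing the test (adjusted p = 0.0781), and it was lower in 3 of 3 replicates.

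Scd1 (a stearoyl-CoA desaturase, which makes monounsaturated fatty acids; chr19:44394455-44407879, minus strand) had 451, 278 and 363 CPM in control and 303, 175 and 249 CPM in SFN. DAC had 413, 241 and 324 CPM and the combination group 256, 183 and 261 CPM. Replicate 2 was low in every group, so that control and SFN overlapped, but each SFN library lay well below the control library of its number. The change was −0.59 with SFN (SE 0.068, adjusted p = 6.12e-05), which is 1.51-fold lower, and −0.63 in the combination group (SE 0.068, adjusted p = 1.67e-05). These were the largest decrease of the 10 with SFN and the second largest with the combination treatment.

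Scd2 (the stearoyl-CoA desaturase with the highest level here; chr19:44293674-44306864, plus strand) had 3499, 2707 and 3154 CPM in control and 2965, 2002 and 2505 CPM in SFN. DAC had 3146, 2216 and 2725 CPM and the combination group 2342, 1813 and 2376 CPM. The combination group lay below every control library, while the SFN group overlapped control. Scd2 changed by −0.34 with SFN (SE 0.062, adjusted p = 0.00240) and by −0.52 in the combination group (SE 0.062, adjusted p = 3.68e-05). The SFN call was lost without the libraries of replicate 2 (adjusted p = 0.0575). Scd1 and Scd2 lie on the same chromosome and share some exon sequence.

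The share of Scd1 in the summed CPM of both stearoyl-CoA desaturases was 10.3% ± 1.06 (SD, n = 3) in control, 10.7% ± 0.90 in DAC, 8.78% ± 0.65 in SFN and 9.65% ± 0.40 in the combination group. It was lower with SFN than in control in each replicate, with differences of −2.15, −1.26 and −1.29 percentage points, and lower with the combination treatment than with DAC, with differences of −1.76, −0.632 and −0.712 points. With DAC it was above control by 0.200, 0.515 and 0.300 points. These shares are a description with no test, and no difference between them was tested.

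Fads1 (a desaturase that inserts a double bond toward the carboxyl end of polyunsaturated fatty acids; chr19:10182888-10196877, plus strand) had 215, 177 and 192 CPM in control and 162, 116 and 144 CPM in SFN. DAC had 205, 146 and 173 CPM and the combination group 134, 98.5 and 136 CPM. Every SFN and combination library lay below every control library. The change was −0.48 with SFN (SE 0.065, adjusted p = 2.6e-04) and −0.67 in the combination group (SE 0.066, adjusted p = 6.91e-06), the largest decrease of the 10 in that comparison (95% interval −0.81 to −0.53).

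Fads2 (the desaturase that acts first on essential fatty acids; chr19:10062765-10101746, minus strand) had 228, 200 and 183 CPM in control and 178, 126 and 144 CPM in SFN. DAC had 190, 170 and 174 CPM and the combination group 164, 128 and 136 CPM. As for Fads1, its close neighbour on the chromosome, no library with SFN reached the control range. The change was −0.46 with SFN (SE 0.067, adjusted p = 4.25e-04) and −0.52 in the combination group (SE 0.067, adjusted p = 7.08e-05).

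Thus all 4 desaturase genes fell with SFN and with the combination treatment. Control and SFN did not overlap for 5 of the 10 members (Acly, Fasn, Elovl6, Fads1 and Fads2), all with SFN lower, where 9.93% of all genes showed this. Control and the combination group did not overlap for 7 members (Acly, Elovl6, Elovl5, Scd1, Scd2, Fads1 and Fads2), against 14.3% of all genes. The calls rest on comparing libraries of the same replicate number. Without the replicate block 0 of the 6 SFN calls passed (adjusted p between 0.0860 and 0.383, with 0.198% of all genes passing) and 3 of the 8 combination calls did, those of Acly, Fads1 and Fads2 (10.3% of all genes).

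With DAC alone 0 of the 10 members passed edgeR's test, where 0.18% of all genes did, all 21 of them higher. The DESeq2 Wald test also called 0 members, and 4 had an unadjusted p under 0.05 (Scd1, Scd2, Fads1 and Fads2), as did 10.1% of all genes. Scd2 was nearest, at −0.22 (SE 0.062, adjusted p = 0.200), with Fads2 at −0.19 (0.325), Fads1 at −0.17 (0.386) and Scd1 at −0.16 (0.422). All 10 fitted values lay below 0, with a median of −0.15, and 7 members were lower in 3 of 3 replicates, compared with 20.7% of all genes. When only the control and DAC libraries were fitted, 5 members passed (Elovl6, Scd1, Scd2, Fads1 and Fads2), all lower, and 5.69% of all genes passed. Acly changed by −0.098 (95% interval −0.20 to 0.0078), and Acss2, Acaca and Fasn lay between −0.013 and −0.00011. The DAC and SFN comparisons share the control libraries.

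Against DAC alone, the combination treatment lowered 6 members, where 6.6% of all genes were lower and 16.1% changed in either direction. These were Fads1 (−0.50, adjusted p = 2.48e-04), Scd1 (−0.46, 5.7e-04), Acss2 (−0.37, 0.0246), Fads2 (−0.33, 0.00508), Scd2 (−0.30, 0.00495) and Acly (−0.27, 0.00265). The groups did not overlap for Acly, Fads1 and Fads2, against 8.98% of all genes. Elovl5 missed the threshold (−0.19, adjusted p = 0.0587) but passed without DAC replicate 3 (0.0380) or DAC+SFN replicate 3 (0.0127). Elovl6 (−0.14, adjusted p = 0.425), Fasn (−0.10, 0.434) and Acaca (−0.012, 0.937) did not pass. The Acss2 call was lost without DAC replicate 1 (adjusted p = 0.138), DAC replicate 3 (0.0513) or DAC+SFN replicate 1 (0.165). Without the replicate block 0 of the 6 calls passed (adjusted p between 0.153 and 0.374, with 0.172% of all genes passing), and without the libraries of replicate 1 the count was 3 (2.12% of all genes). Fitting only the DAC and combination libraries, Acly (adjusted p = 0.0624) and Acss2 (0.109) did not pass.

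**Figure D3:**
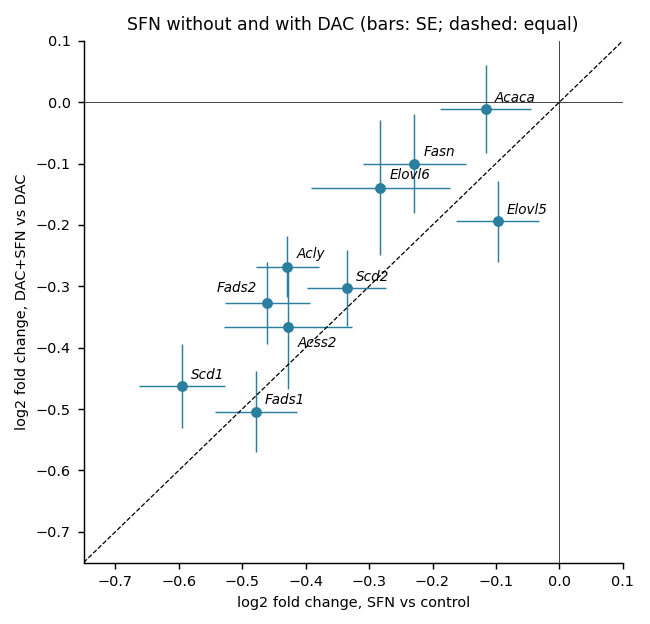
Log2 fold change of each member for SFN against control (horizontal) and for DAC+SFN against DAC (vertical), with standard errors as bars and the line of equal change dashed. Elovl5 and Fads1 lie below the line and the other 8 members above it.

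The change with SFN did not differ detectably between cells with and without DAC. The interaction of the treatments passed edgeR's test for 0 of 10 members and for 0% of all genes (5.87% had an unadjusted p under 0.05), and the DESeq2 Wald test called 0 genes as well. Acly was the only member with an unadjusted p under 0.05 (interaction 0.16, adjusted p = 0.850), and its 95% interval ran from 0.011 to 0.31. For Scd1 the interval ran from −0.073 to 0.34 and for Fads1 from −0.22 to 0.17, so differences of that size cannot be told from 0 with these libraries. Directly against SFN, the combination treatment passed for 0 of 10 members by edgeR and by DESeq2, where 1.61% of all genes passed. The 3 members with an unadjusted p under 0.05 were Elovl5 (−0.24), Scd2 (−0.19, adjusted p = 0.131) and Fads1 (−0.20, adjusted p = 0.132), where 17.8% of all genes had one. These 3 passed when only those groups were fitted, where 10.5% of all genes passed, and without DAC+SFN replicate 3, where 6.01% did. Fasn was higher than with SFN in 3 of 3 replicates, at 0.13 (95% interval −0.044 to 0.30).

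The replicate number itself moved most of the members. It passed for 8 of 10, all but Fasn (adjusted p = 0.314) and Elovl6 (0.996), where 33.9% of all genes passed. This test was chosen after the values were seen. Scd1 was 0.69 lower on the log2 scale in replicate 2 than in replicate 1, more than its decrease with SFN. The corresponding values were −0.45 for Scd2 and −0.42 for Fads1. For Scd1 the test of the replicate number as a whole gave an adjusted p of 4.19e-06. With the mean of each replicate number removed, the 45 pairs of members correlated over the 12 libraries with a median r of 0.707, from 0.133 (Acss2 with Acaca) to 0.967. These values share libraries and treatment groups and are given as a description.

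With the mean of each replicate number removed from the log2 CPM in the same way, the genes outside the members with the most similar profile to the mean of the 10 over the 12 libraries were Enpp2 (r = 0.995), Dstyk (0.992), Slc38a2 (0.991), and the cholesterol synthesis genes Cyp51 (0.989) and Nsdhl (0.989). Cyp51 changed by −0.74 with SFN and −0.84 with the combination treatment. Those most like Fasn alone, on the same centred values, were Plxnb1 (r = 0.942), Snd1 (0.922), Slc12a7 (0.914), Tcf25 (0.908) and Med12 (0.905).

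The sterol synthesis and uptake genes, whose pathway shares acetyl-CoA and SREBP control with the members, were mostly lower as well. Of 22 tested, 21 were lower with SFN and 21 with the combination treatment, with medians of −0.64 and −0.72. For comparison with this and the next lists, 13.9% of all genes changed in either direction with SFN and 31.6% with the combination treatment. Without the replicate block these shares were 0.198% and 10.3%. Pmvk, which makes mevalonate diphosphate, changed by −0.73 and −1.10. Fdps, the farnesyl diphosphate synthase, changed by −0.80 and −1.06, and Lss, the lanosterol synthase, by −0.85 and −0.95. Mvd, the decarboxylase that follows Pmvk, changed by −0.79 and −0.90. When the replicate block was left out, 0 of these genes passed with SFN and 8 with the combination treatment. With DAC alone 0 of the 167 genes of this and the other lists passed edgeR's test. An unadjusted p under 0.05 was found for 25 of them and for 10.1% of all genes. The DESeq2 Wald test called 1, among the NRF2 target genes.

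Among 27 regulators of lipid synthesis tested, 6 were lower and 2 higher with SFN, and 8 lower and 3 higher with the combination treatment. Srebf1, which encodes the SREBP that favours fatty acid genes, changed by −0.32 (SE 0.083, adjusted p = 0.0187) and −0.41 (SE 0.084, adjusted p = 0.00195), and Srebf2, which favours cholesterol genes, by −0.44 and −0.48. Insig1, which retains SREBPs in the endoplasmic reticulum and is itself a target, changed by −0.80 and −0.89. Prkaa2, a catalytic subunit of AMP-activated kinase, rose by 0.42 and 0.60. Lpin1, a phosphatidate phosphatase, gave 0.070 with SFN (adjusted p = 0.658) and rose by 0.59 with the combination treatment. The liver X receptor gene Nr1h2 gave 0.055 and 0.087 and did not pass, and Nr1h3 and Mlxipl had at most 12 and 1 counts and were not tested. A model with no replicate block called 0 regulators with SFN and 7 with the combination treatment.

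Precursor and NADPH supply was mixed, with 2 of 14 genes higher and 3 lower with SFN and 3 higher and 5 lower with the combination treatment. G6pdx, the first enzyme of the pentose phosphate pathway and a source of NADPH, rose by 0.84 and 0.90. Slc25a1, the mitochondrial citrate carrier that feeds Acly, changed by −0.44 and −0.41. Idh1, a cytosolic source of NADPH, changed by −0.75 and −0.91, and Acat2, an acetyl-CoA acetyltransferase, by −0.75 and −0.97. Of these genes, 0 passed with SFN and 3 with the combination treatment in the model with no block.

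Among the 20 tested partners of chain extension and desaturation, 2 rose and 1 fell with SFN and 5 rose and 2 fell with the combination treatment. These counts lie near the shares of all genes that changed in either direction, 13.9% and 31.6%. They do not set the list apart. Tecr, the last reductase of the elongation cycle, changed by −0.25 and −0.35. Cyb5r3, which passes electrons to the desaturases, changed by 0.29 and 0.38, and Hacd4, of the dehydratase family of that cycle, by 0.45 and 0.63. Acacb, the other acetyl-CoA carboxylase, gave 0.068 with SFN (adjusted p = 0.719) and 0.48 with the combination treatment. Without the block 0 and 2 of these genes passed, where 0.198% and 10.3% of all genes did.

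The 18 NRF2 target genes, a pathway that SFN is known to activate, were higher in 13 cases and lower in 0 with SFN, and higher in 14 and lower in 1 with the combination treatment. Gsta3, a glutathione transferase, rose most, by 3.94 and 4.22, and Nqo1, a quinone reductase, by 2.01 and 2.12. Gsta3 had only 32, 27 and 16 counts in control (1.47, 1.16 and 0.82 CPM). The size of its change thus rests on a level near the filter. Without the block 3 of the 18 passed with SFN and 12 with the combination treatment.

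**Figure D4:**
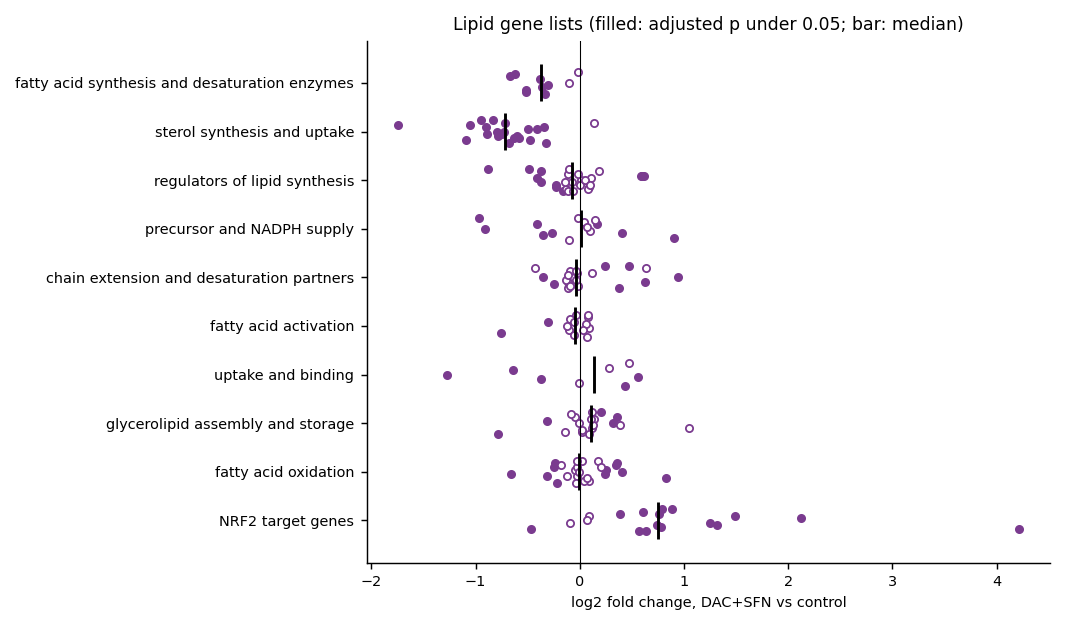
Log2 fold changes of DAC+SFN against control for the members and 9 lists of genes; each circle is a gene, filled for an adjusted p under 0.05, and the bar is the median. The members (median −0.37) and the sterol genes (−0.72) lie mostly below 0, the NRF2 target genes (0.75) mostly above it, and the other lists around it.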

How the data were processed

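RNA-seq libraries (TruSeq stranded mRNA, polyA selected, 75-base reads) of B16F10 cells were trimmed by the authors with Trimmomatic 0.38, checked with FastQC 0.11.7, aligned to mm10 with TopHat2 2.1.1 and counted per gene with HTSeq, keeping uniquely aligned reads. The deposited values are these raw counts for 24421 symbols in each of 12 libraries, and groups and replicate numbers come from the labels. The study's filter, scaling and test were followed: a minimum of 1 CPM in 3 or more libraries (16 to 28 counts), TMM scaling and edgeR 4.0.16 glmQLFTest (R 4.3.3, legacy fit). The study also required a fold change above 2, which was not part of the threshold here. With that limit the fit gave 149 genes with SFN, 4 with DAC and 310 with the combination treatment. The study's own counts differ from these and were not reproduced. The batch the authors corrected for is not named, so the replicate number served as block. Numbers were taken to pair the libraries: deviations from group means correlated between libraries of the same number in all 18 pairs (r 0.27 to 0.732, mean 0.544). In the 36 pairs of different number and group, r ran from −0.597 to 0.282 (mean −0.267), so the ranges overlapped slightly. In all 12 pairs, replicates of a group differed beyond sampling noise (chi-square per gene 13.6 to 37.5), and each was counted. Intervals and p-values measure the spread between libraries that remains once the replicate number is taken into account. Log2 fold changes use edgeR's prior count of 0.125, and replicate differences log2 CPM with a prior count of 2. Counts of genes lower in 3 of 3 replicates and of groups that do not overlap are descriptions.

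Exon lengths (GENCODE M21, for 98.5% of symbols) and RefSeq promoters were matched by symbol. Markers and 9 lists of lipid and NRF2 genes were counted without a set test. The members and lists were chosen with earlier results of these data known. By the rule for named genes, all members are named, at most 4 genes per list with the smallest adjusted p in the SFN or combination comparison, 6 regulators (Srebf1, Srebf2, Mlxipl, Insig1, Nr1h2 and Nr1h3), and the 5 genes most correlated with the members' mean and with Fasn over log2 CPM centred within each replicate number. The rule for promoters, the 3 smallest adjusted p, was applied to members with an entry. Alternatives were DESeq2 1.42.0 (Wald test and size factors), filters, fits and samples, each left out in turn. The code was tested on simulated data.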

Additional observations from a re-analysis of the deposited data

How the results depend on the processing

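Of 1070 repeats of a member's change in a comparison under an alternative setting, 964 kept direction and side of the threshold, 41 lost it, 25 gained it and 40 changed sign. No SFN against control change reversed. A 2-fold limit, which the study applied, left 0 members called with SFN, with the combination treatment against control and against DAC. Without the replicate block, so without pairing, 0 members passed with SFN, 3 with the combination treatment and 0 for it against DAC. Fitting only the groups compared gave 5 with DAC, 3 for the combination treatment against SFN, 8 with SFN, 8 with the combination treatment and 4 for it against DAC (Acly and Acss2 lost), and no filter on low counts gave 1 with DAC and 1 for the combination treatment against SFN. Leaving out libraries gave 5 to 7 members with SFN, 0 to 0 with DAC, 5 to 8 with the combination treatment (5 without replicate 1), 3 to 7 for it against DAC (3 without replicate 1), 0 to 3 against SFN (3 without DAC+SFN replicate 3) and 0 to 0 for the interaction. The cause was not tested.

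The changes that reversed were those of 7 members in comparisons where they had not passed. With at least 10 counts in every library, Fasn with DAC gave 0.0015. Leaving out libraries, the log2 change with DAC ran from −0.086 to 0.049 for Acss2, −0.067 to 0.058 for Acaca and −0.068 to 0.086 for Fasn. For Acaca it ran from −0.11 to 0.087 with the combination treatment and from −0.11 to 0.082 for it against DAC, where Elovl6 ran from −0.29 to 0.032. Against SFN, Acss2 ran from −0.063 to 0.17, Elovl6 from −0.14 to 0.11 and Scd1 from −0.11 to 0.069. Interactions ran from −0.040 to 0.18 for Acss2, −0.0020 to 0.29 for Elovl6, −0.029 to 0.14 for Scd2 and −0.11 to 0.061 for Fads1. Of all genes, 1619 passed with SFN and 23 without the block, 3683 and 1201 with the combination treatment, 1879 and 20 for it against DAC, and 187 and 0 against SFN. With DAC 21 passed, 83 by DESeq2 and 662 when only those groups were fitted. DESeq2's size factors shifted the median of all genes by −0.00572 (SFN) to 0.00286 (interaction). Acss2 had the fewest counts of the members, 271 to 641.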

Other observations

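Lists of genes that use or store fatty acids held calls in both directions. The background for these counts is the share of all genes called either way, 13.9% (SFN) and 31.6% (DAC+SFN). Whether any of these lists differed from that background was not tested. Of 25 genes of fatty acid oxidation tested, 2 were higher and 1 lower with SFN, and 6 were higher and 5 lower with the combination treatment, with a median of −0.0085 in the latter. Cpt1c, a brain-type carnitine palmitoyltransferase, changed by 0.61 and 0.83, and Cpt1a, which admits fatty acids to the mitochondrion, by 0.13 (adjusted p = 0.127) and 0.36 (adjusted p = 2.22e-04). Acadvl, an acyl-CoA dehydrogenase, changed by 0.16 (adjusted p = 0.144) and 0.35, and Ehhadh, a peroxisomal enzyme, by −0.49 and −0.66. Of 14 fatty acid activation genes, 1 was higher and 3 lower with SFN, and 0 higher and 2 lower with the combination treatment. Acsl3, a long-chain acyl-CoA synthetase, changed by −0.61 and −0.76, and Acsl6 by −0.81 and 0.035 (adjusted p = 0.917). Acot13 changed by −0.11 (adjusted p = 0.417) and −0.31.

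Of 8 uptake and binding genes tested, 0 rose and 1 fell with SFN, and 2 rose and 3 fell with the combination treatment. Vldlr, a lipoprotein receptor, changed by −1.62 and −1.28, Fabp5, a fatty acid-binding protein, by −0.069 (adjusted p = 0.475) and −0.38, Fabp7 by −0.35 (adjusted p = 0.0830) and −0.64, and Lrp1 by 0.073 (adjusted p = 0.511) and 0.43. Of 19 glycerolipid genes tested, 0 rose and 2 fell with SFN, and 3 rose and 2 fell with the combination treatment. Among all genes the shares that changed, 13.9% and 31.6%, were larger than in this list. Lpcat3, which places polyunsaturated fatty acids in phospholipids, changed by −0.37 and −0.32, Mgll, a monoacylglycerol lipase, by −0.74 and −0.78, and Plin2, a lipid droplet coat protein, by 0.14 (adjusted p = 0.242) and 0.35. Without the replicate block 0 genes of these 4 lists passed with SFN, and with the combination treatment 3 of fatty acid oxidation, 0 of activation, 2 of uptake and binding and 0 of the glycerolipid list.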
